A study of Homo sapiens with 12 samples.

Results

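The carbonic anhydrase genes CA9, CA12, CA2, CA8, CA11, CA13 and CA5B were followed in a pair of human colorectal cancer lines, SW480 and HCT116, that carried either a vector (NC) or overexpressed USP51. USP51 is a ubiquitin-specific protease that removes ubiquitin from other proteins. The 7 genes were taken by name, as the sums of their RefSeq transcripts, from the 17818 genes in the table. A list of 15 carbonic anhydrase genes had 14 in the table, these 7 among them. CA4 was not analysed here. The labels describe 12 libraries, 3 in each of the 4 groups: SW480 with vector, SW480 with USP51 (genotype USP51-OE), HCT116 with vector and HCT116 with USP51 (USP51-OE). All were grown in DMEM with serum. No promoter, clone or selection scheme of the construct is given in the sources used here.

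Every value is the authors' mean of a group, because single libraries could not be matched to the labels by name. No replicate spread, SD or p-value is therefore given. The group means are named C and E in the table, which were read as vector and USP51, and every direction below rests on that reading. TPM, a share of the library corrected for transcript length, is used for levels, and pairs of values give vector first. Total counts were 15506686 to 15920306 per mean. Ratios of counts per total count carry 95% exact Clopper-Pearson intervals on the rounded means, which cover counting error only. Each mean of 3 libraries was treated as the count of a single library. The intervals are therefore wider than the counting error of all reads together, and one that includes 1 might exclude it on pooled reads. How such a difference compares with the spread between libraries was not tested. The overexpressed gene, USP51, was at 0.513 and 25.7 TPM in SW480, beside 0 and 40.8 TPM in HCT116. Of 10 colorectal epithelial markers, 7 reached 1 TPM in each group. The exceptions were CDX1 and LGALS4, at 0 to 0.227 TPM, in both lines. KRT20, the keratin of differentiated colonocytes, was a further exception in SW480, and VIL1, the microvillus protein villin, at 0.03 and 0.02 TPM, in HCT116. The fibroblast list summed to 1.51 to 15.4 TPM and the leukocyte list to 6.38 to 8.15 TPM per group. The endothelial and erythroid marker lists summed to 0.0133 to 0.383 TPM per group. Most of the fibroblast sum was COL1A1, at 1.33 to 15.1 TPM. In the leukocyte list CD68 was at 3.98 to 6.96 TPM, CD14 at 0.203 to 2.25 TPM and LYZ at 0.593 to 0.873 TPM. PTPRC of that list was at 0 TPM in 3 groups and at 0.0333 TPM in HCT116 with USP51.

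Carbonic anhydrases are zinc enzymes that interconvert carbon dioxide and water with bicarbonate and a proton. CA9 and CA12 span the plasma membrane and work on its outer face, where they take part in acid handling by tumour cells. CA2 and CA13 are cytosolic, CA5B is mitochondrial, and CA8 and CA11 are related proteins that lack the catalytic activity. CA9 is a known target of the hypoxia-inducible factors, which bind DNA at a short core sequence, and CA2 is abundant in normal colon epithelium.

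The starts of CA9, CA12 and CA5B are shown first and were searched for that core sequence. RefSeq promoters (GRCh38.p14) were available for these 3 of the 7 genes. The 250 bases upstream of each start were searched on both strands for ACGTG and GCGTG, the letters of the core. For CA9 and CA12 the 30 bases around the single match are printed, and for CA5B, with 6 matches, all 250 bases. Capitals mark the matches, and CACGT and CACGC are the same letters read on the other strand.
CA9, chr9:35673898-35673927, plus strand: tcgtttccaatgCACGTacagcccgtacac
CA12, chr15:63382063-63382092, minus strand: gcggatctcaccCACGCctgccagcagctc
CA5B, chrX:15738020-15738269, plus strand: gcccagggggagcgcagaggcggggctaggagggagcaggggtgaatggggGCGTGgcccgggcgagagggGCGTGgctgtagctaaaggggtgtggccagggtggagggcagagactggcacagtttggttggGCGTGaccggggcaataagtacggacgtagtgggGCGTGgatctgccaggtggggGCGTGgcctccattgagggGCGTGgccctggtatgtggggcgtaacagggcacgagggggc

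The CA9 match began 18 bases upstream of the RefSeq start and that of CA12 began 234 bases upstream. At least 1 such match was found in 43.1% of 27305 promoters of the same length, and in 58.0% of the 10121 promoters of genes with at least 1 TPM in HCT116. The CA9 match lies within the longer word TACGTGCA, read on the minus strand, which 46 of the 27305 promoters held (0.168%). That word was looked up for CA9 alone among the members. Longer words are rarer than the core in any case, so this share says nothing particular about CA9. A match describes letters and not a bound site.

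With USP51, CA9 was, by ratio, the member farthest above vector in both lines. In SW480 it was at 2.78 TPM with vector and 9.50 TPM with USP51. In HCT116 it was at 2.17 TPM with vector and 6.38 TPM with USP51. Both USP51 means thus lay above both vector means. CA9 (NCBI gene 768, chromosome 9, 35673928 to 35681159) is represented by 1 transcript, NM_001216.3, so no division between isoforms enters its value. In bulk RNA, more cells with CA9 mRNA and more mRNA per cell cannot be told apart.

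The counts behind CA9 were small, 36.7 and 132.3 in SW480 and 29 and 82 in HCT116. The count ratio was 3.50 (2.42 to 5.19) in SW480 and 2.89 (1.87 to 4.57) in HCT116. The log2 ratio of TPM + 1, which understates differences of low genes, was 1.47 in SW480 and 1.22 in HCT116. Ordered by level, the vector means did not separate by their counting interval (SW480 over HCT116, 1.29, 0.773 to 2.18). SW480 with USP51 stood 1.57-fold (1.18 to 2.09) above HCT116 with USP51.

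By the rule of at least 2-fold on TPM + 1 with at least 1 TPM in either group, CA9 was the member called in SW480, where 0.197% of 12175 genes were called in either direction (9 higher and 15 lower, or 13 and 14 by CPM). It was also the member called in HCT116, where 0.282% of 12393 genes were called. CA9 ranked 4 from the top in SW480 and 13 from the top in HCT116. Of 11332 genes measured in both lines, 0.0176% were at least 2-fold higher in both, which is 2 genes, USP51 and CA9.

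In GENCODE v29 an exon of a gene on the opposite strand overlaps CA9. Whether counting used strand is not given in the sources used here, so reads of the pair cannot be told apart there.

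**Figure D1:**
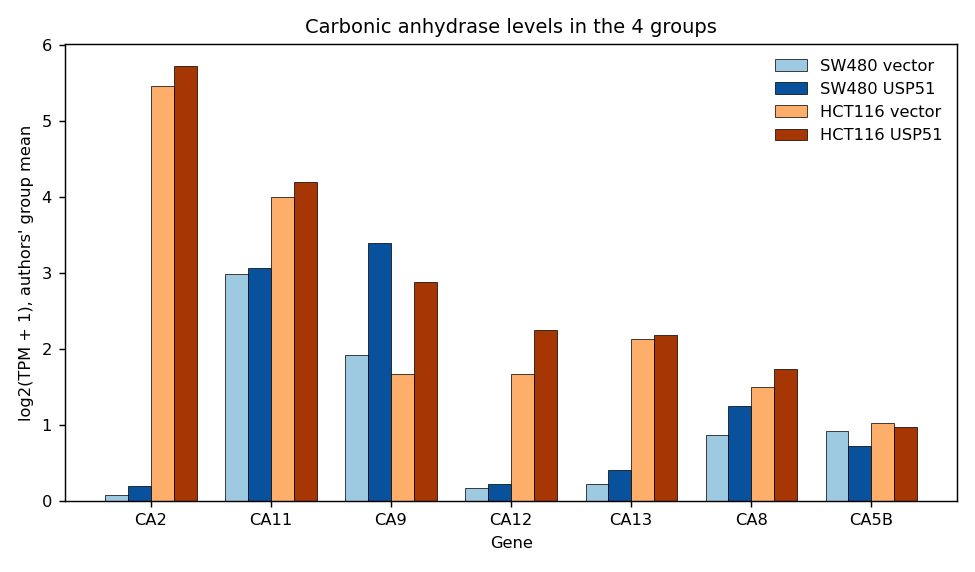
Levels of the 7 genes as log2(TPM + 1) of the authors' group means, 1 bar per group. CA9 is higher with USP51 in both lines (2.78 and 9.50 TPM in SW480, 2.17 and 6.38 TPM in HCT116), while CA2, CA12 and CA13 separate the lines.

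CA12, the other outward-facing member, reached 1 TPM in HCT116 and not in SW480. It was at 2.18 TPM with vector and 3.74 TPM with USP51 in HCT116, on 92.3 and 153.3 counts. In SW480 it was at 0.123 and 0.167 TPM, on 5 and 7 counts. The 4 means fell into a low pair, SW480, and a higher pair, HCT116. The count ratio of USP51 over vector in HCT116 was 1.70 (1.30 to 2.22), and the log2 ratio of TPM + 1, 0.58, lay just under the 1.5-fold mark on that scale. In SW480 the ratio was 1.37 (0.375 to 5.49), too few counts to show a difference of the size seen in HCT116.

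The CA12 signal in HCT116 came mainly from NM_206925.2, at 1.96 TPM with vector and 3.35 TPM with USP51. That transcript held 90.0% of CA12 TPM with vector and 89.6% with USP51. The longest form, NM_001218.5, was at 0.14 and 0.31 TPM, 6.43% and 8.21% of the gene. The main form was higher with USP51 while its share of the gene differed little.

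In GENCODE v29, in which earlier or equal versions of these transcripts are matched, the coding length is 1062 bases for the longest form and 1029 bases for the main one. They differ in the coding part by exon 9 of 11, 33 bases at chr15:63328098-63328130 on the minus strand. It is shown in capitals between 15 bases of each neighbouring exon, since the form measured in HCT116 lacks it.
CA12 exon 9: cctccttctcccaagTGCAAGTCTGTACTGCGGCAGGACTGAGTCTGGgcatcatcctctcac
The split between forms is the authors' estimate.

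CA2, the main cytosolic enzyme, was the most abundant member in HCT116, at 43.1 TPM with vector and 51.8 TPM with USP51. In SW480 it was at 0.05 and 0.143 TPM, on 0.667 and 2 counts per mean. The lines did not overlap at any condition. In HCT116 the count ratio of USP51 over vector was 1.18 (1.05 to 1.32), on 582.7 and 674 counts. In TPM this was the largest difference among the 7 genes in HCT116, 8.77 TPM beside 4.21 TPM for CA9. Its transcript NM_000067.3 held 90.2% and 90.7% of CA2 TPM in HCT116, and NM_001293675.1 the rest, so the shares hardly differed with USP51.

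CA13, another cytosolic enzyme, had the line pattern of CA2 at a lower level. It was at 3.36 and 3.55 TPM in HCT116 and at 0.167 and 0.327 TPM in SW480. The ratio of USP51 over vector in HCT116 was 1.04 (0.806 to 1.33), an interval that lies below the CA9 ratio of 2.89. In SW480 the ratio of 2.13 (0.754 to 6.82) rested on 6.33 and 13 counts. Annotated antisense genes or opposite-strand genes overlap CA13 (AC011773.3), CA11 (SEC1P) and CA5B (INE2), and their reads cannot be told apart without strand.

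**Figure D2:**
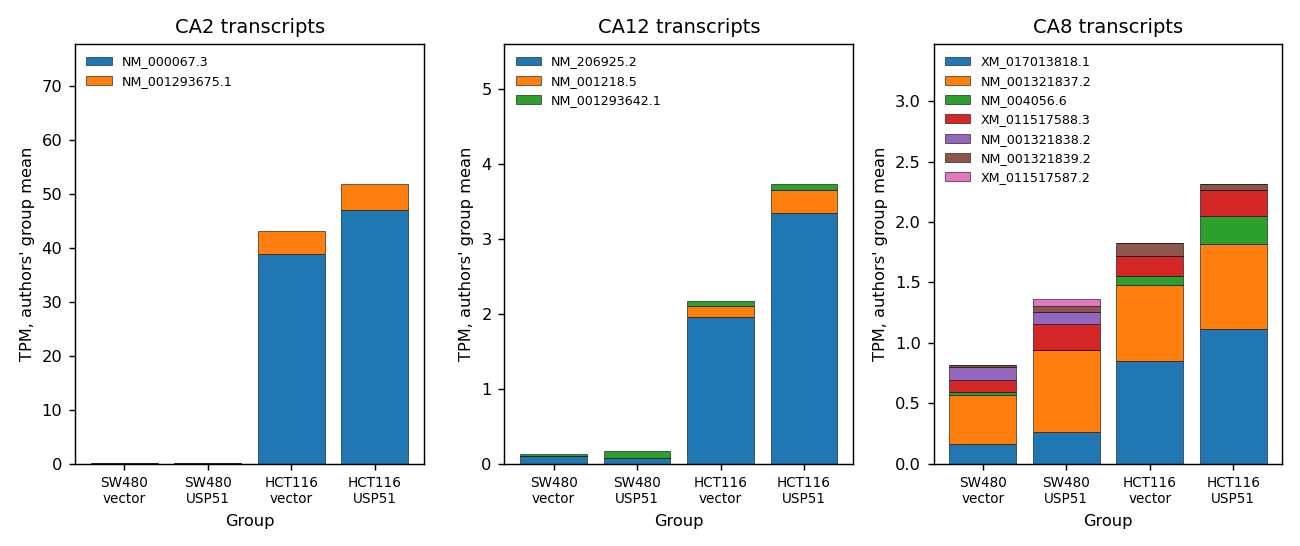
TPM of each RefSeq transcript of CA2, CA12 and CA8, stacked within the 4 groups, on separate axes. NM_206925.2 makes up 90.0% of CA12 with vector and 89.6% with USP51 in HCT116, and CA2 and CA12 are close to 0 in SW480.

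CA11, a protein of the family without catalysis, was present in both lines. It was at 6.88 and 7.38 TPM in SW480, beside 14.9 and 17.2 TPM in HCT116. Each USP51 mean lay slightly above its vector mean, with ratios of 1.11 (0.848 to 1.47) and 1.13 (0.943 to 1.36) that include 1. The difference between lines was larger than that with USP51.

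CA8, which lacks catalysis and binds the IP3 receptor ITPR1, was at 0.82 and 1.37 TPM in SW480, beside 1.83 and 2.32 TPM in HCT116. The ratios were 1.59 (0.981 to 2.62) and 1.26 (0.905 to 1.76). None of the neighbouring steps in the order of its 4 means excluded a ratio of 1. Of its 7 transcripts, 2 reached 0.5 TPM in some group. NM_001321837.2 held the largest share in SW480, 49.6% with vector and 49.8% with USP51. The predicted transcript XM_017013818.1 held the largest share in HCT116, 46.5% and 48.2%. The leading transcript thus differed by line and not by USP51, in estimates that rest on 6.08 to 40.9 counts per transcript.

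CA5B, the mitochondrial member, was the one below vector in both lines. It was at 0.897 and 0.65 TPM in SW480, beside 1.03 and 0.953 TPM in HCT116. The ratios of 0.744 (0.498 to 1.10) and 0.905 (0.635 to 1.29) include 1, and no neighbouring step in the order of its means excluded it. In GENCODE v29 exons of its pseudogene CA5BP1 overlap exons of CA5B on the same strand, and the pseudogene is a near copy, so the value is uncertain.

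Taking the 7 genes side by side, 6 were above vector and 1 below in each line by any amount, those under 1 TPM included. Of the members that reached 1 TPM in a group of the comparison, 3 of 3 were above vector in SW480 and 6 of 7 in HCT116. Among all genes tested, which passed that same filter, 38.8% were above vector in SW480 and 60.8% in HCT116. In SW480 only CA9, CA11 and CA8 reached 1 TPM in a group of the comparison, and in HCT116 all 7 did. CA8 passed in SW480 only through its USP51 mean (0.82 and 1.37 TPM), while CA5B, at 0.897 and 0.65 TPM, did not pass. The counting interval excluded 1 for CA9 in SW480, 1 of the 7 members and of the 3 that reached 1 TPM. In HCT116 it did so for 3 of the 7 (CA9, CA12 and CA2). Among all genes tested the shares were 27.8% and 28.8%. The median log2 ratio of those measured was 0.38 in SW480 (3 genes) and 0.23 in HCT116 (7 genes). Over all genes it was -0.04 and 0.04. The SW480 median is the value of CA8 itself, so it depends on the filter and is no sign of a shift. Over all 7 in SW480 the median was 0.12.

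The ratios of the lines were set side by side for the 3 members measured in both, CA8 in SW480 only through its USP51 mean. The log2 ratio in HCT116 minus that in SW480 was -0.25 for CA9, -0.15 for CA8 and 0.11 for CA11. None of these was 1 or more, beside 0.653% of the 11332 genes measured in both lines. For CA12 the difference was 0.52, but its SW480 means are under 1 TPM. These differences have no test.

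**Figure D3:**
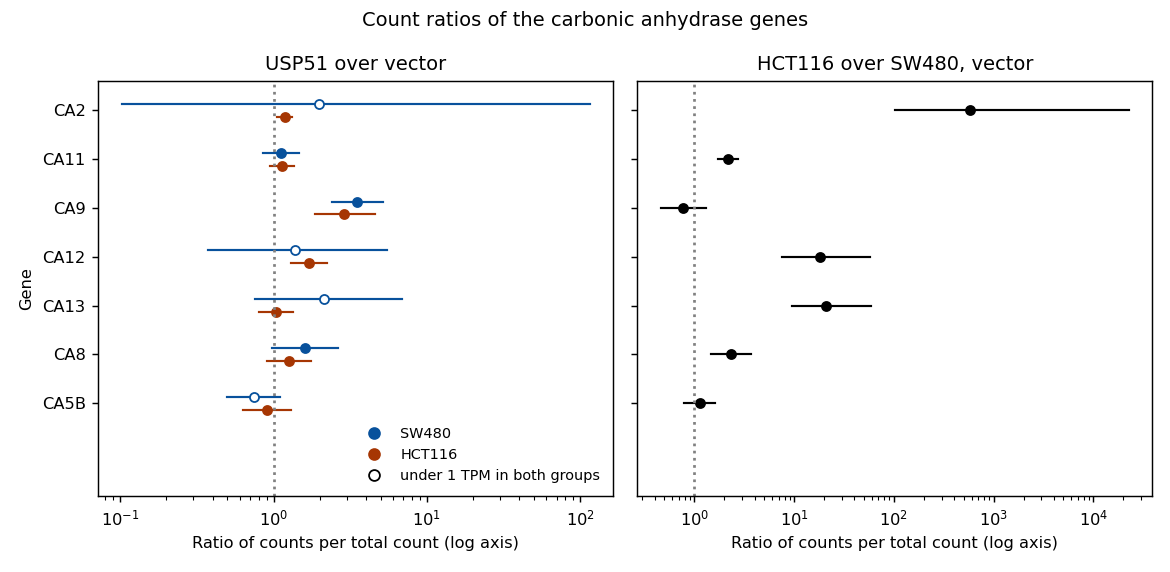
Ratios of counts per total count on log axes with 95% exact counting intervals, for USP51 over vector in each line (left) and HCT116 over SW480 with vector (right). Open points had under 1 TPM in both groups. CA9 lies above 1 in both lines on the left, at 3.50 and 2.89, and CA2, CA13 and CA12 lie farthest right between the lines.

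The vector cells of the lines were then compared, using the same vector means as above. CA2 was 576-fold (103 to 22777) higher in HCT116 by counts, a ratio that rests on a SW480 mean of 0.667 counts, rounded to 1. CA13 was 21.1-fold (9.42 to 58.5) and CA12 18.2-fold (7.51 to 57.3) higher in HCT116. CA8 and CA11 differed less, by 2.32-fold (1.48 to 3.71) and 2.17-fold (1.71 to 2.76). The CA8 difference rested largely on the predicted XM_017013818.1, at 0.16 TPM in SW480 and 0.85 TPM in HCT116. Without predicted transcripts the CA8 log2 ratio of TPM + 1 was 0.21, in place of 0.64. CA9 (0.774, 0.459 to 1.29) and CA5B (1.13, 0.793 to 1.62) had intervals that include 1. By the 2-fold rule 4 of the 7 were called, CA2, CA12, CA13 and CA11, all higher in HCT116, where 28.0% of 13033 genes were called in either direction and 14.7% were higher. By any amount 6 of the 7 were higher in HCT116, as were 53.3% of all genes, and 5 of the 7 intervals excluded 1, as did 83.8%. CA11 was at a log2 ratio of 1.02, just inside that mark.

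CA2 and CA13 share a neighbourhood with CA1 and CA3 on chromosome 8, in which CA13 starts at 85245458 and CA2 ends at 85481493. CA3, a cytosolic enzyme known from muscle, was at 0.0233 and 0 TPM in SW480, beside 0.96 and 0.887 TPM in HCT116. CA1, known from red cells and colon, was at 0 TPM in SW480 and at 0.0267 TPM in both HCT116 groups. CA13, CA3 and CA2 thus had higher means in HCT116, with CA1 near 0 among them. Next to CA13, RBIS was at 99.0 TPM in SW480 and 144.2 TPM in HCT116 with vector. Next in order, E2F5 was at 13.5 and 13.7 TPM and LRRCC1 at 4.49 and 13.4 TPM. CA8 is on the same chromosome, at 60185412 to 60281400, and is no part of that group.

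The other measured family members were under 1 TPM in all 4 groups. CA14, a further outward-facing enzyme, was at 0.24 and 0.123 TPM in SW480, beside 0.327 and 0.513 TPM in HCT116, spread over 8 predicted transcripts. CA7 was at 0.103 and 0.267 TPM in SW480, and listed at 0 in HCT116. CA5A, CA6 and CA10 did not pass 0.0633 TPM in any group.

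The makeup of carbonic anhydrase mRNA therefore differed by line. The 7 genes summed to 11.7 TPM in SW480 with vector and 19.5 TPM with USP51, and to 68.5 and 86.0 TPM in HCT116. CA9 held 23.7% of that sum in SW480 with vector and 48.6% with USP51, and was then the most abundant member, ahead of CA11. In HCT116 CA9 held 3.17% with vector and 7.42% with USP51, while CA2 held 62.8% and 60.3%. Of the difference of 7.82 TPM in SW480, CA9 made up 86.0%. Of the difference of 17.5 TPM in HCT116, CA2 made up 50.2% and CA9 24.1%.

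Over the 14 measured genes, the outward-facing enzymes summed to 3.14 and 9.79 TPM in SW480 and to 4.67 and 10.6 TPM in HCT116. The cytosolic enzymes summed to 0.343 and 0.737 TPM in SW480 and to 47.4 and 56.3 TPM in HCT116. The outward-facing sums of the lines were thus nearer to each other than the cytosolic sums, which were far apart. These sums carry no interval. In SW480 with vector, proteins without catalysis held 63.7% of the family's TPM.

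**Figure D4:**
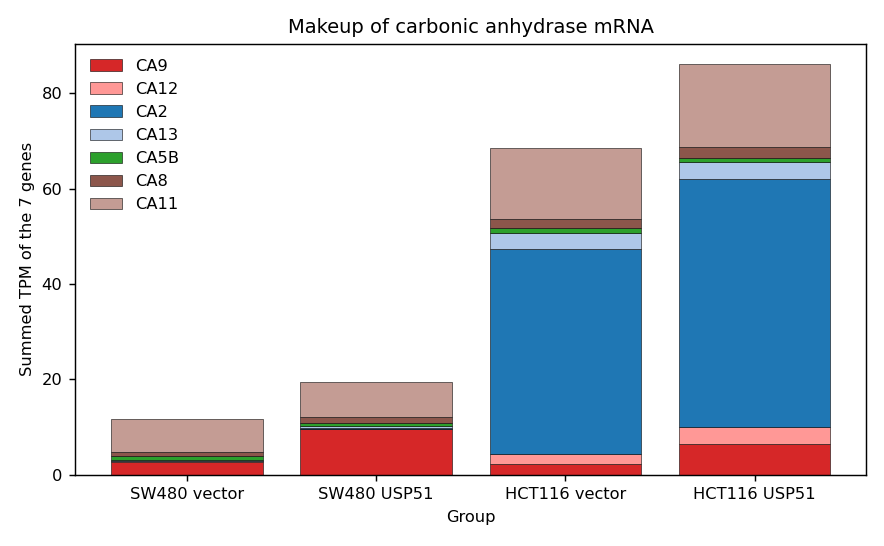
Summed TPM of the 7 genes in the 4 groups, stacked by gene, from the authors' means. CA9 makes up 23.7% and 48.6% of the bars in SW480 and CA2 fills 62.8% and 60.3% of the bars in HCT116.

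Genes whose 4 means were most like those of CA9 were sought by the Euclidean distance of log2(TPM + 1) after each gene's own mean was subtracted, among 13236 genes. The closest was CEMP1, at 0.393 and 2.18 TPM in SW480, beside 0 and 0.767 TPM in HCT116, a gene that overlaps AMDHD2 and is uncertain for that reason. The other 4 were CDKN1C, which encodes the cell cycle inhibitor p57, EGLN3, SCHIP1 and EPHA8, at distances of 0.76 to 0.844. The distance of CEMP1 was 0.447. For the other members the closest gene lay nearer, from 0.0132 for CA5B (WDR44) to 0.0970 for CA2 (PRSS8). These distances restate the ratios above, since few genes differed with USP51 as CA9 did, and are no separate result. Closest to CA12 was SH3PXD2A (distance 0.0484), at 0.763 and 0.85 TPM in SW480, beside 3.91 and 6.18 TPM in HCT116. PDLIM5 and CGNL1, which encode proteins of actin fibres and cell junctions, came next. SH2B2 was closest to CA8, UBE2O to CA11 and B3GNT4 to CA13.

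The regulators of CA9 were read from a list of 10 HIF subunits and oxygen sensors. Of 9 measured in SW480, 4 were above vector (38.8% of all genes) and 5 below, with a median log2 ratio of -0.03. In HCT116 7 of 9 were above (60.8% of all genes) and 2 below, with a median of 0.19. In each line 1 of them was past 1.5-fold, EGLN3, a prolyl hydroxylase that marks HIF for destruction and is itself a HIF target. EGLN3 was at 8.54 and 13.3 TPM in SW480, beside 4.54 and 8.44 TPM in HCT116. Among all genes 0.534% were at least 1.5-fold higher in SW480 and 1.96% in HCT116. HIF1A mRNA was at 81.5 and 72.9 TPM in SW480 (count ratio 0.922, 0.876 to 0.970). In HCT116 HIF1A was at 85.0 and 84.1 TPM (0.972, 0.925 to 1.02). EGLN1 was at 25.3 and 33.1 TPM in HCT116 (ratio 1.27, 1.18 to 1.38), and at 21.6 and 21.0 TPM in SW480.

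Genes that handle the products of the reaction were read from further lists. Of 13 bicarbonate transporters 12 were in the table, SLC26A3 not among them, and 6 were measured in SW480 and 5 in HCT116. None was past 1.5-fold on the TPM + 1 scale that is used for every list here. Among all genes 1.41% in SW480 and 2.11% in HCT116 were past it in either direction. At those shares few or none would be expected in lists of this size. Those farthest from vector were SLC26A4 in SW480, at 1.12 and 1.78 TPM, and SLC4A8 in HCT116, at 0.59 and 1.13 TPM. Their count ratios, which hold no pseudocount, were 1.64 (1.13 to 2.39) and 1.74 (1.21 to 2.54). SLC4A2, the abundant chloride-bicarbonate exchanger, was at 101.5 and 103.6 TPM in SW480, beside 115.2 and 105.4 TPM in HCT116. Among genes of proton export and cell-surface pH, 6 of 8 measured were above vector in SW480 (median 0.12), beside 38.8% of all genes. In HCT116 5 of 9 were above (median 0.01), beside 60.8% of all genes. None was past 1.5-fold. The lactate and proton exporter gene SLC16A3 was at 131.0 and 166.3 TPM in SW480, beside 256.1 and 298.0 TPM in HCT116. The sodium-proton exchanger gene SLC9A3 had opposite directions, 29.05 and 38.2 TPM in SW480 and 8.51 and 6.96 TPM in HCT116.

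Subunits of the V-ATPase, which pumps protons across membranes, had medians of -0.06 in SW480 and 0.02 in HCT116 over 17 measured members. The subunit gene past 1.5-fold was ATP6V1C2, with 1.85 and 4.003 TPM in HCT116. Enzymes that use bicarbonate had medians of -0.11 (8 measured) and 0.09 (9 measured), with none past 1.5-fold. Their largest difference was that of MCCC1, a carboxylase subunit of leucine breakdown, at 31.7 and 21.6 TPM in SW480. The 3 IP3 receptors, which CA8 is known to act on through ITPR1, had medians of -0.10 in SW480 and 0.18 in HCT116. ITPR1 was at 1.01 and 0.873 TPM in SW480, beside 2.23 and 2.72 TPM in HCT116. Of 10 genes of absorptive colonocytes, in which CA2 is abundant, 6 were in the table. Of those, 1 reached 1 TPM in a group of SW480 and 2 did so in HCT116. KRT20 was at 1.45 and 1.08 TPM in HCT116, where CA2 was at 43.1 and 51.8 TPM.

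**Figure D5:**
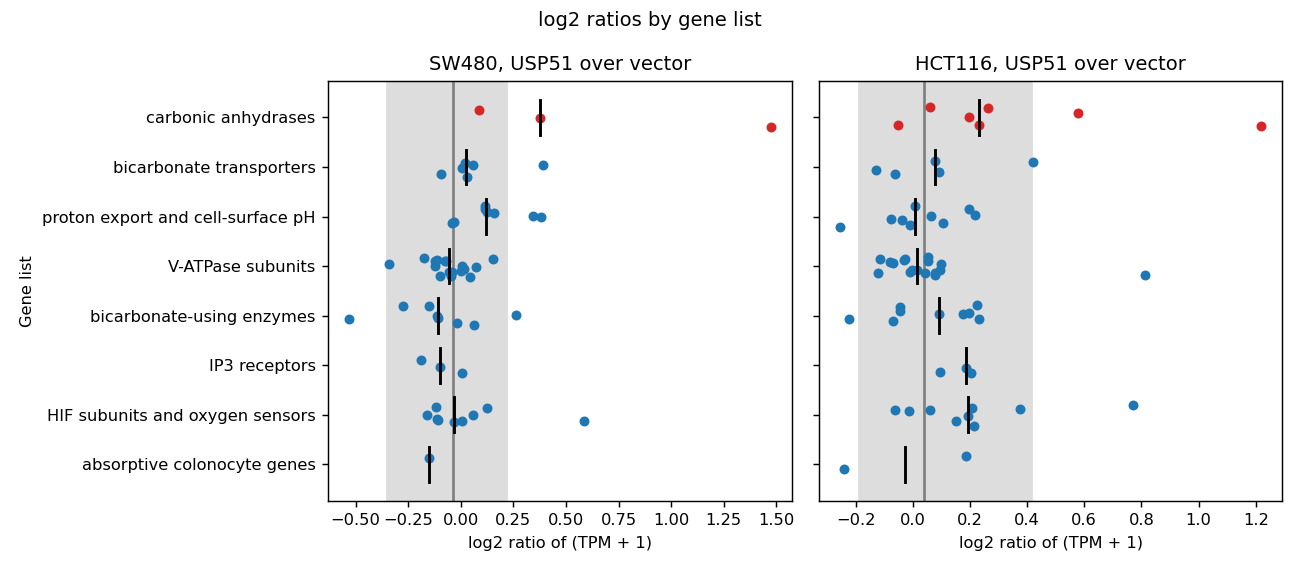
log2 ratio of TPM + 1, USP51 over vector, for each measured gene of 8 lists in SW480 (left) and HCT116 (right). Black ticks are list medians, the grey line is the median of all genes and the band spans their percentiles 5 to 95. CA9 is the rightmost point in both panels, at 1.47 and 1.22.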

How the data were processed

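RNA of 12 libraries was sequenced, 3 per group. TopHat, DESeq 1.32.0 and hg38 appear, without roles, per the submitters' processing notes. Which tool counted, and with what strand setting, is not given. The deposited values cover 84345 RefSeq transcripts of 17818 gene identifiers, 17672 with a symbol in RefSeq GRCh38.p14. Per the file headers, the authors deposited estimated counts (not divided by depth), TPM and FPKM, each also as a mean per group. The 12 mean columns were used. The other 36 columns carry codes that match no label and were not used, so the edgeR tests, left-out replicates and replicate block that had been provided for were not run. Gene values are sums of transcripts. The log2 ratio of TPM + 1 was taken where either group reached 1 TPM, and 2-fold, a rule of size, made a call. Counts were rounded for intervals and for the scaling factors (TMM, RLE and upper-quartile, edgeR 4.0.16, R 4.3.3). Python 3.11.15 and scipy 1.17.1 were used. Calls and intervals were tested on simulated counts without spread between libraries. Changes were planted only in genes with higher counts than CA9, so that check does not cover members of low counts or replicate spread.

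The members, gene lists and rules were chosen with earlier results of these data known. Named genes are the 7 members and their family, USP51, up to 4 genes per list by size of the log2 ratio, and the genes nearest in pattern (5 for CA9, 3 for each other member), of which not all are printed. HIF1A, the chromosome 8 neighbours and the grouping by cell compartment were added after values had been seen. Precision is limited by counts, which were under 10 per mean for CA12 and CA2 in SW480. The levels of the gene that overlaps CA9 are not reported here.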

Additional observations from a re-analysis of the deposited data

How the results depend on the processing

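No paired analysis was possible because the single-library columns carry no replicate numbers or labels, and leaving out replicates and DESeq2 were not run for the same reason. Under CPM with or without scaling factors, FPKM, a pseudocount of 0.1 and curated transcripts alone, the log2 ratio of CA9 ranged from 1.40 to 1.74 in SW480 and from 1.08 to 1.51 in HCT116. CA9 stayed the one member called at 2-fold in each line under these settings, without a filter and with at least 20 counts. At 1.5-fold, applied to TPM + 1 only, it was also the one called. CA12 in HCT116 passed 1.5-fold by CPM (log2 0.647 to 0.672) and with a pseudocount of 0.1 (0.753). CA8 in SW480 passed it with that pseudocount (0.673). The curated, filter and 1.5-fold settings leave the CA9 value itself unchanged. None of the 147 member values under alternatives reversed, and 2 moved by more than the distance from the middle to an end of their counting interval on the log2 scale. Those were CA12 and CA13 between the lines, at 3.35 and 3.70 with a pseudocount of 0.1, and these values lie within the counting intervals of the ratios. Between the lines CA11 was no longer called with TMM, RLE or upper-quartile factors or FPKM (3 members called), and CA8 was called in addition with a pseudocount of 0.1 (5 members). Over all genes, a pseudocount of 0.1 called 117 higher and 10 lower in HCT116, in place of 32 and 3, and 29 higher and 45 lower in SW480, in place of 9 and 15. Curated transcripts alone called 38 genes in SW480, in place of 24, and 56 in HCT116, in place of 35. FPKM called 15 and 23. The 1.5-fold rule called 172 and 261. Genes with log2 ratios at least 1 apart between lines numbered 74, but 41 by FPKM, 182 with a pseudocount of 0.1, 118 with curated transcripts and 500 at 1.5-fold. Between the vector lines 3654 genes were called, and 6472 at 1.5-fold.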
